A study of Mus musculus with 5 samples.

Results

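The Hox genes are the 39 protein-coding genes of the mouse Hoxa, Hoxb, Hoxc and Hoxd clusters, out of 22232 protein-coding genes on mm9. They were taken by symbol, Hox with a cluster letter and a paralogue number, and correspond to 40 Ensembl gene IDs, since Hoxa3 carries 2. There were 11 Hoxa genes on chromosome 6, 10 Hoxb genes on chromosome 11, 9 Hoxc genes on chromosome 15 and 9 Hoxd genes on chromosome 2. Values are given within 1 kb of each transcription start site (TSS) and over each cluster with 10 kb on either side.

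The study mapped Cxxc1 and H3K4me3, the trimethylated form of lysine 4 on histone H3 found at promoters, by ChIP-seq in DP thymocytes, which express CD4 together with CD8 and precede mature T cells. It asked where Cxxc1 binds and how the mark differs in cells without it. WT cells were labelled wild type and, in the study's supplement, came from Cxxc1 fl/fl mice without Cre. Cxxc1-deficient cells came from Cxxc1 fl/fl hCD2 Cre mice, in which a human CD2 transgene drives Cre in lymphoid cells. Their titles name a knockout and their genotype label names Cxxc1+/-, and the titles were followed. The floxed strain was made in 129 embryonic stem cells and backcrossed to C57BL/6, and mice were 3 to 4 weeks old unless otherwise specified. The Cxxc1 list carries no genotype of its own and is given as the authors' list of binding sites in WT cells. Each of the 3 lists came from 1 library, so differences between genotypes are given as single values without a test.

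Hox genes encode homeodomain transcription factors that give cells their position along the body axis, and within a cluster the order of the genes follows the order of their expression along that axis. In blood, genes of the Hoxa cluster and some of Hoxb are known for their activity in stem and progenitor cells and early thymocytes, with low expression in maturing T cells. Trithorax proteins, among them the methyltransferase Mll1, place methylation of H3K4 at active Hox genes, Polycomb proteins keep silent Hox genes off, and Cxxc1 belongs to the related Setd1 complexes and binds unmethylated CG dinucleotides.

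The deposited values are for 200-bp windows inside called regions, and their unit, RPM, counts the tags of a window for every 1000000 that mapped. The windows below carry the signal at the places the results turn on. Each is the highest listed window without an annotated exon in its peak. They are printed on the plus strand of mm9 with every CG in capitals, since the CG dinucleotide is what the CXXC domain of Cxxc1 recognises.
Hoxa4, upstream of the start site, WT H3K4me3, chr6:52142201-52142400: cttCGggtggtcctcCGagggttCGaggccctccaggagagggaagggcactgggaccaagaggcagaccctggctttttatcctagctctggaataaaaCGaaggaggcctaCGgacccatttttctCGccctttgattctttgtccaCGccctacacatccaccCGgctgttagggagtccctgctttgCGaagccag
Hoxa6, upstream of the start site, WT H3K4me3, chr6:52159001-52159200: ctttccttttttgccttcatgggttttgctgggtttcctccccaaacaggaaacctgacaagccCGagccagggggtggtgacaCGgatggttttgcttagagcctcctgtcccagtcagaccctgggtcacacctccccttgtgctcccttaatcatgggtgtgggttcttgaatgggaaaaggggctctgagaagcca
Between Hoxa7 and Hoxa9, WT H3K4me3, chr6:52172601-52172800: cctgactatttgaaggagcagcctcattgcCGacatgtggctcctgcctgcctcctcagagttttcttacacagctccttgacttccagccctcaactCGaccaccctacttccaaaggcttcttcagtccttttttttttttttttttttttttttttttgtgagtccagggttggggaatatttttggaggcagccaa
Inside Hoxc10 and outside its exons, WT H3K4me3, chr15:102798201-102798400: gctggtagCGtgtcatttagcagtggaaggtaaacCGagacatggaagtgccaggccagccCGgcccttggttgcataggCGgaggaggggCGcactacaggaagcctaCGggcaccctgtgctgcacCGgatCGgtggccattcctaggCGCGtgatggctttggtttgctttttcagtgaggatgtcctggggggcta
Upstream of an internal start site of Hoxd3, Cxxc1-deficient H3K4me3, chr2:74577201-74577400: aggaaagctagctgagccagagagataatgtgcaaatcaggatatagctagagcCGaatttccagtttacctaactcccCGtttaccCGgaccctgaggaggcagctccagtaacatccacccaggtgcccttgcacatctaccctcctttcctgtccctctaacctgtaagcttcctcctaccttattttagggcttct
Beyond the end of Hoxd1, Cxxc1, chr2:74607801-74608000: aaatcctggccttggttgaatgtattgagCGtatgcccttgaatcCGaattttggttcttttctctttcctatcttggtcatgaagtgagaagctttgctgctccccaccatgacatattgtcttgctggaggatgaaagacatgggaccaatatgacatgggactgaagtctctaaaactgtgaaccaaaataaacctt
Beyond the end of Gm15053, Cxxc1, chr6:52217601-52217800: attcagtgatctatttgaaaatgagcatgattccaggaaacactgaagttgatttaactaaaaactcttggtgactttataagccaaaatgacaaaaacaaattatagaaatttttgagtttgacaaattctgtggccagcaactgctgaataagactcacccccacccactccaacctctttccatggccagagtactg
These windows held 0.3 to 0.7 RPM, or 3 to 7 tags. The 4 WT H3K4me3 windows held 9 CG at Hoxa4, 2 at Hoxa6, 2 between Hoxa7 and Hoxa9, and 10 at Hoxc10. The Cxxc1-deficient window at Hoxd3 held 3. Of the Cxxc1 windows, that near Hoxd1 held 2 CG and that beyond Gm15053 held 0.

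Depth was similar in the 3 libraries, at 9.461 to 9.470 M tags for WT H3K4me3, 9.443 to 9.452 M for Cxxc1-deficient H3K4me3 and 9.099 to 9.116 M for Cxxc1, as inferred from the smallest steps between values. The lists differed in size, with 14237 WT H3K4me3 peaks, 2979 Cxxc1-deficient H3K4me3 peaks and 4352 Cxxc1 peaks. A peak here is a run of listed windows with gaps of at most 2 windows, and its strength is the sum of its RPM. The weakest peak of every list held 1.1 RPM, so a place that is not listed has an unknown signal below the calling threshold and not a signal of 0. Of 13 chosen T-lineage marker genes, Ptcra was not matched by symbol, which left 12. Of these, 7 were listed in WT H3K4me3 (Tcf7, Lck, Thy1, Cd8b1, Cd8a, Bcl11b and Cd3e, 1.8 to 5.5 RPM within 1 kb of a TSS), whereas Cd4, Rag1, Rag2, Cd3g and Cd3d were not. In Cxxc1-deficient H3K4me3, 3 were listed, namely Cd3e with 1.9 RPM, Cd8a with 1.5 RPM and Rag1 with 0.7 RPM. None of 4 B-lineage, 4 myeloid and 4 thymic epithelial markers was listed in WT or Cxxc1-deficient H3K4me3. Over all protein-coding genes, 31.2% were listed in WT and 5.89% in Cxxc1-deficient H3K4me3. Among genes with a CpG island within 1 kb of a TSS, the shares were 49.4% and 8.97%. The marker sets are small, and their counts were not tested against these shares.

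WT H3K4me3 was listed at 11 of the 39 Hox genes, that is 28.2%. The share over all protein-coding genes was 31.2% (6934 of 22232). Among the 12825 genes with a CpG island within 1 kb of a TSS it was 49.4%, and 10 of the 37 Hox genes with such an island were listed, 27.0%. The share of listed Hox genes was thus near that of all genes and below that of genes with a CpG island, which nearly all Hox genes have. Neighbouring Hox genes can share a peak, so no interval over genes is given. By cluster, 6 of 11 genes were listed in Hoxa (54.5%), 3 of 10 in Hoxb (30.0%), 1 of 9 in Hoxc and 1 of 9 in Hoxd (11.1% each). Hoxa was near the share of genes with a CpG island and Hoxb near that of all genes. With 9 to 11 genes per cluster, some of which share peaks, the differences between clusters were not tested.

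**Figure D1:**
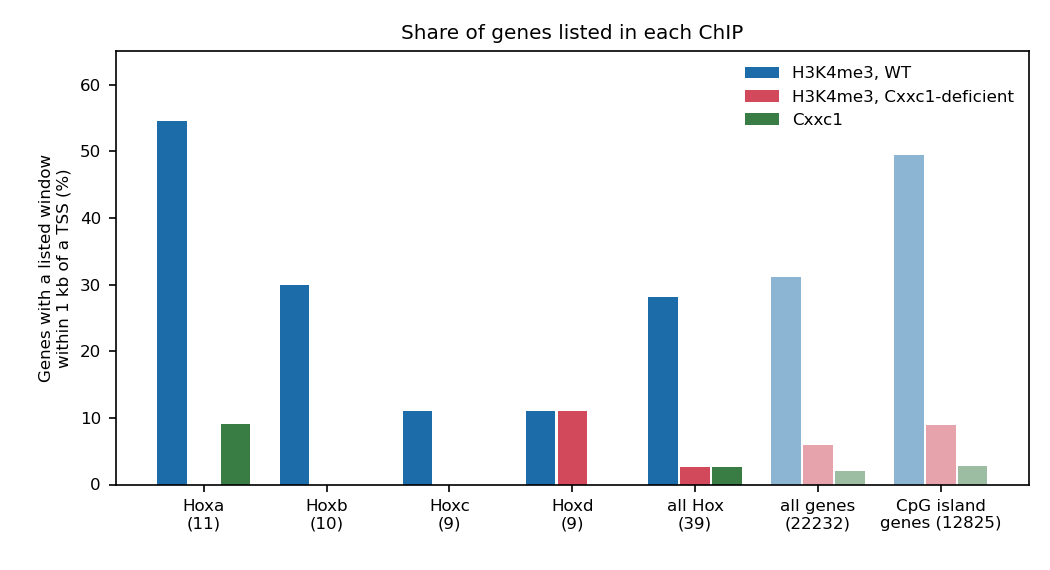
Percentage of genes with at least 1 listed window within 1 kb of a TSS, by cluster, for all Hox genes, for all protein-coding genes and for genes with a CpG island, with the number of genes in parentheses; bars stand for 1 library each and have no error. Hoxa reaches 54.5% in WT H3K4me3, all Hox genes 28.2% and all genes 31.2%, and a missing bar is a count of 0.

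Covered length, taken from the same list, also differed between clusters. WT H3K4me3 windows covered 17.2 kb of the 125.5 kb Hoxa region (13.7%), 6.8 kb of 193.9 kb at Hoxb (3.51%), 2.0 kb of 116.8 kb at Hoxd (1.71%) and 1.0 kb of 135.7 kb at Hoxc (0.737%). The WT list covered 0.748% of the assembly. The assembly is not matched to these regions for genes or CG content, so this share does not measure enrichment at the clusters. Hoxa held 86 of the 135 listed windows in the 4 regions, or 63.7%, and 11 of the 19 peaks. The mean per listed window was 0.34 RPM in Hoxa, 0.35 in Hoxb, 0.52 in Hoxc and 0.30 in Hoxd, so the greater total in Hoxa (29.6 RPM, against 11.8, 2.6 and 3.0) went with more listed windows and not with higher ones.

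In the Hoxa cluster, 9 of the 11 WT peaks lay in a 50.8-kb stretch from 52140401 to 52191200 that runs from Hoxa4 to Hoxa10, and 28.7% of this stretch was listed. The gaps between these peaks were 800 to 16000 bp, and the widest of them held the TSS of Hoxa5. Within 1 kb of their TSSs, Hoxa10 had 13 windows and 4.9 RPM, Hoxa7 15 windows and 4.6 RPM, Hoxa9 11 windows and 3.8 RPM, Hoxa4 8 windows and 2.9 RPM, and Hoxa6 5 windows and 2.4 RPM. Hoxa7, Hoxa9 and Hoxa10 are known in blood for their part in progenitor growth and in leukaemia. These sums grow with the number of TSSs (4 each for Hoxa7 and Hoxa9, 2 each for Hoxa10 and Hoxa4, 1 for Hoxa6). At Hoxa7, 2 of the 4 had a listed window within 1 kb. The highest 200-bp window was similar across these genes, at 0.5 to 0.7 RPM.

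The strongest Hox peak of the WT list covered the TSS of Hoxa7 and ran into an exon at the near end of Hoxa9, at 52169801 to 52173600. It held 5.2 RPM, or 52 tags (38.8 to 68.2, exact 95% Poisson interval, which covers counting error only, as do all intervals here), and was stronger than 96.4% of WT peaks. At Hoxa10 a peak at 52183401 to 52185400 held 3.6 RPM (36 tags, 25.2 to 49.8). At Hoxa4 a peak at 52140401 to 52142400 held 3.3 RPM (33 tags, 22.7 to 46.3). These were the 3 strongest WT peaks of the Hoxa region. The peak at Hoxa6, mostly upstream of its TSS at 52158401 to 52160200, held 2.7 RPM. Hoxa9 had peaks of 2.4 and 2.1 RPM at its start sites, and Hoxa10 a second one of 2.0 RPM at its most upstream TSS.

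**Figure D2:**
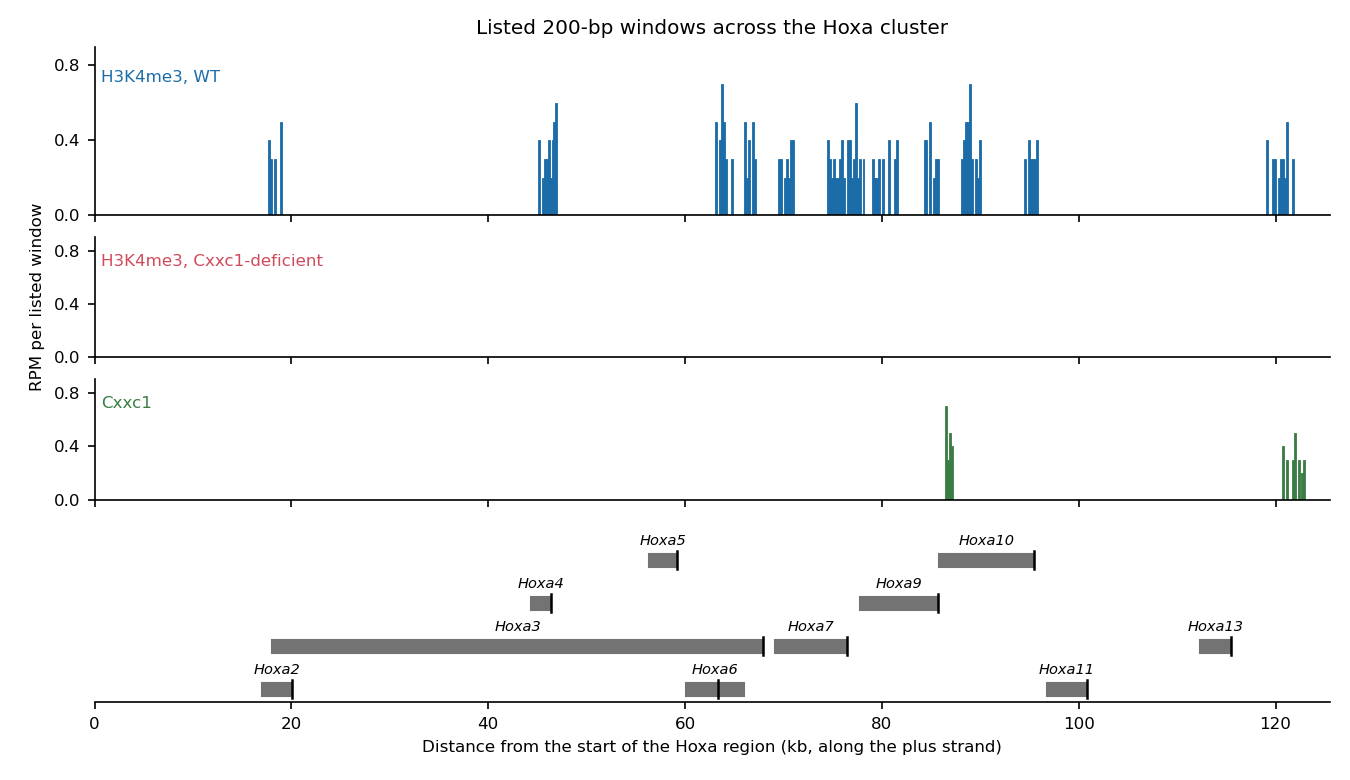
RPM of each listed 200-bp window (vertical axes) along the Hoxa region in kb from the start of the region, for WT H3K4me3, Cxxc1-deficient H3K4me3 and Cxxc1; grey boxes are the genes shown and black ticks their most upstream TSS. WT windows crowd between Hoxa4 and Hoxa10, the Cxxc1-deficient track has 0 windows, and Cxxc1 has 1 peak at Hoxa9 and Hoxa10 and 1 beyond Hoxa13.

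Listing at Hoxa3 depended on where its start sites are placed. The annotated span of Hoxa3 reaches upstream past Hoxa4, Hoxa5 and Hoxa6, and 3 of its 5 TSSs lie between Hoxa6 and Hoxa7. A WT peak of 1.9 RPM at 52161401 to 52162600 lay 466 bp from the nearest of those, whereas the other TSSs had no listed window within 1 kb. The same peak lay closer to the upstream end of the annotated span of Hoxa6, at 52161355, so it is not particular to Hoxa3. A weak WT peak of 1.5 RPM, stronger than 2.86% of the list, lay over exons of Hoxa2 and Hoxa3 at 52113001 to 52114400, 1012 bp from the Hoxa2 TSS and thus just outside the 1-kb limit. A further peak of 2.1 RPM at 52164801 to 52166400 lay inside Hoxa7, 1104 bp from a TSS.

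Hoxa5 and the 5′ end of the Hoxa cluster were not listed. The distance from a TSS to the nearest WT window was 3815 bp for Hoxa5, 5013 bp for Hoxa11 and 3527 bp for Hoxa13, the last 2 of which pattern the limbs and the urogenital tract. The window nearest Hoxa13 belonged to a WT peak of 2.8 RPM at 52214401 to 52217200 over the noncoding gene Gm15053, named Hottip in RefSeq, a transcript known for keeping the 5′ end of the cluster active.

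In the Hoxb cluster, WT H3K4me3 was listed at Hoxb5 with 7 windows and 2.3 RPM, at Hoxb6 with 6 windows and 2.1 RPM, and at Hoxb4 with 1 window and 0.4 RPM. The Hoxb5 peak at 96163001 to 96165600 held 3.3 RPM (33 tags, 22.7 to 46.3) and the Hoxb6 peak at 96160001 to 96162000 held 2.6 RPM (26 tags, 17.0 to 38.1). Both spanned a TSS, and at Hoxb6 it was 1 of 2. Hoxb4, a factor known for expanding blood stem cells, was at the edge of the rule, since its peak of 1.9 RPM at 96178801 to 96180200 began 803 bp downstream of the TSS. A peak of 2.3 RPM at 96140401 to 96141600 lay between Hoxb9 and Hoxb8, 1619 bp from the Hoxb8 TSS and so outside the limit, and a peak of 1.7 RPM lay in an intron of Gm53, 15371 bp from Hoxb9. The other TSSs were farther from any WT window, from 3971 bp at Hoxb7 and 4440 bp at Hoxb3 to 46866 bp at Hoxb1.

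The Hoxc and Hoxd clusters held 1 listed gene each. Hoxc10, a posterior gene known in the hindlimb and lumbar spinal cord, had the highest single window of all Hox genes, 0.8 RPM, in a peak of 2.6 RPM (26 tags, 17.0 to 38.1) on its TSS at 102797201 to 102798600. It was the only WT peak of the Hoxc region, and the TSSs of the other 8 Hoxc genes lay 8270 bp (Hoxc9) to 50767 bp (Hoxc4) from it. At Hoxd8 a peak of 2.7 RPM (27 tags, 17.8 to 39.3) lay on the TSS at 74543001 to 74545200. The other WT peak of the Hoxd region covered Evx2, a homeobox gene next to the cluster, at 74493201 to 74496800 with 4.1 RPM (41 tags, 29.4 to 55.6). Only its last window, of 0.3 RPM, was inside the region, and Hoxd13 lay 9567 bp away.

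**Figure D3:**
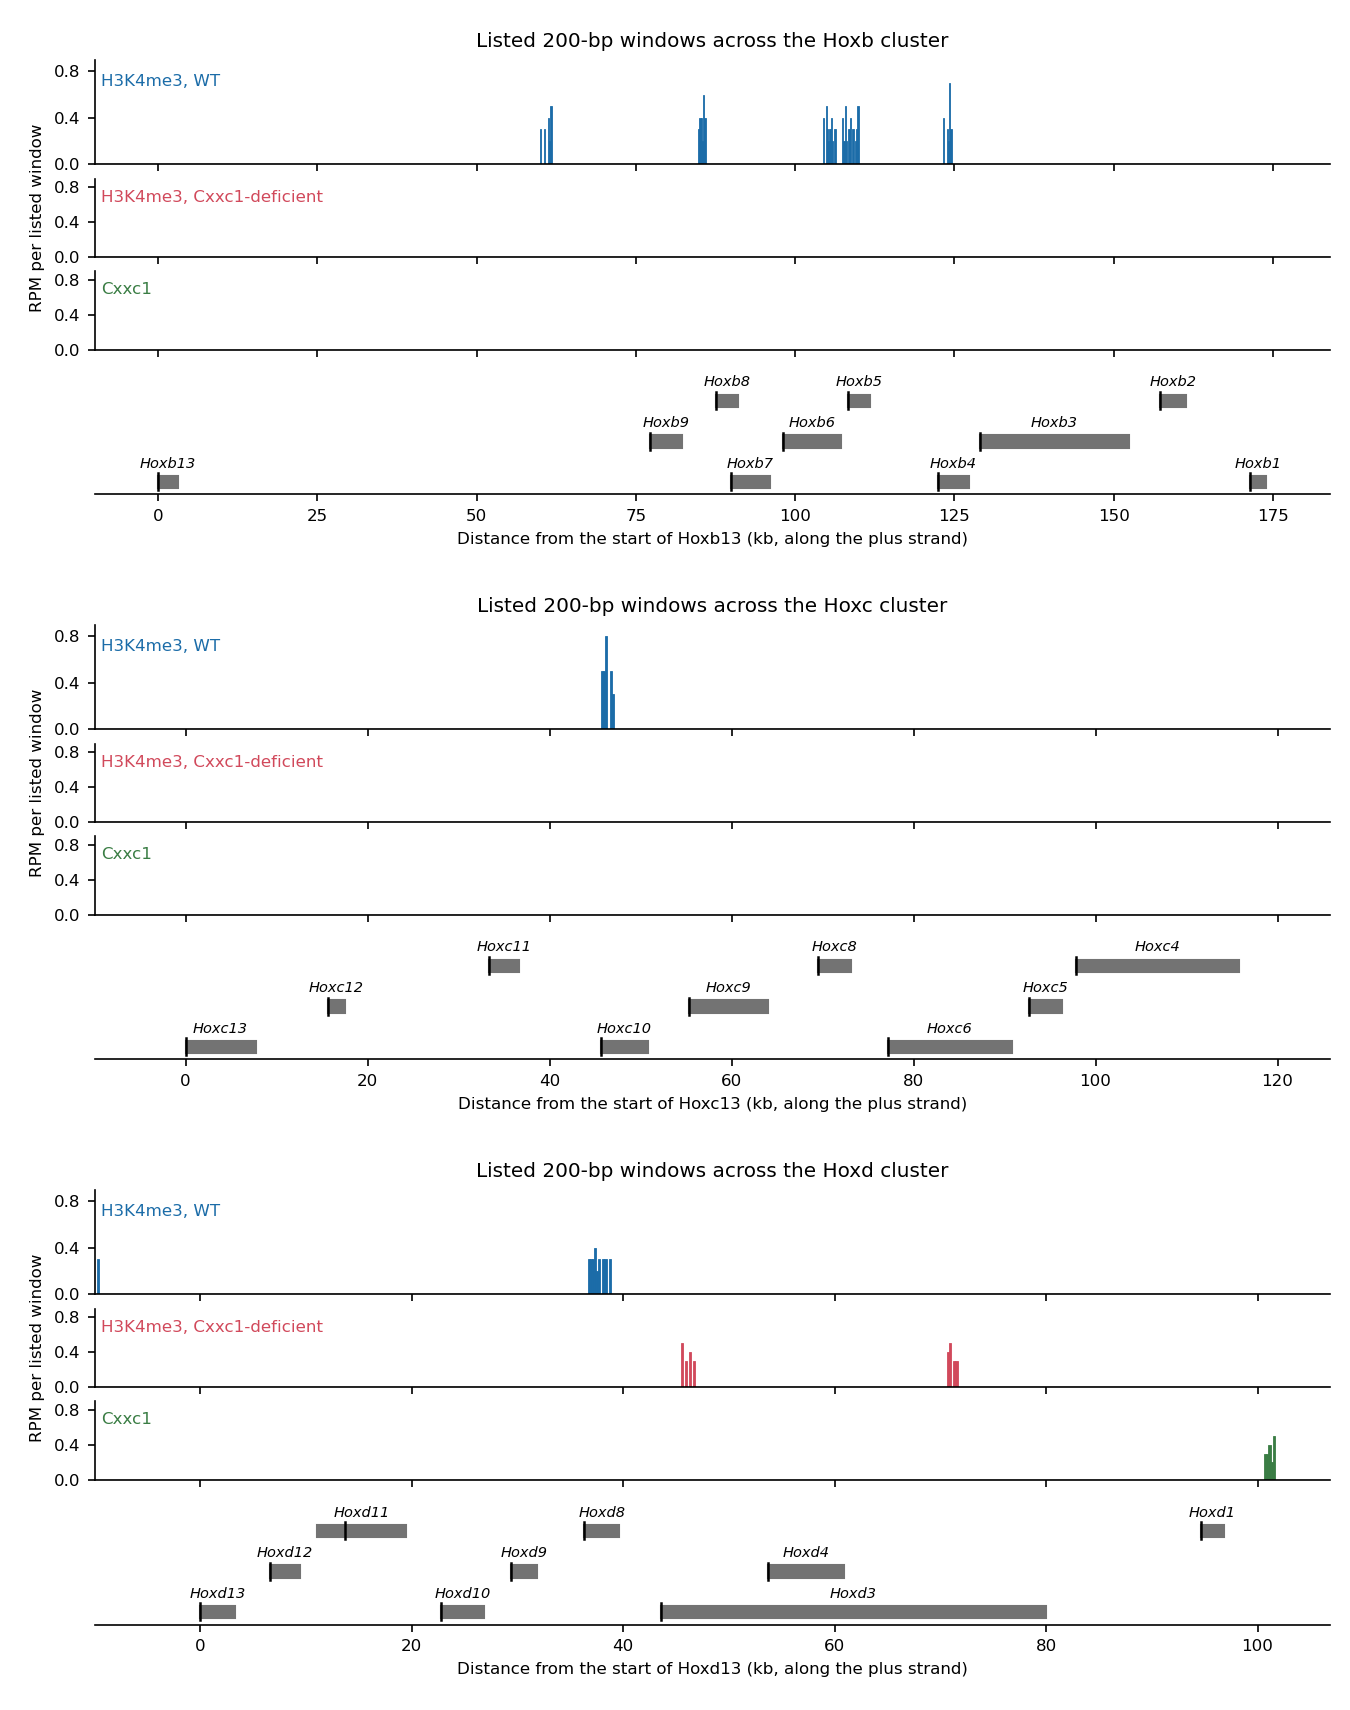
RPM of each listed 200-bp window along the Hoxb, Hoxc and Hoxd regions in kb from the start of the first gene, drawn as for Hoxa. WT H3K4me3 windows stand at Hoxb4 to Hoxb6, between Hoxb9 and Hoxb8, upstream of Hoxb9 in Gm53, at Hoxc10, at Hoxd8 and, with 1 window, at Evx2 on the left edge of the Hoxd region, Cxxc1-deficient windows only within Hoxd3, and Cxxc1 windows only beyond Hoxd1.

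By paralogue group, the listed genes were mostly in the middle of the clusters. WT H3K4me3 was listed at 1 of 8 anterior genes (groups 1 to 3), 7 of 15 middle genes (groups 4 to 8) and 3 of 16 posterior genes (groups 9 to 13). The share was 31.2% of all protein-coding genes and 49.4% of those with a CpG island, the latter near that of the middle genes. No middle gene of Hoxc was listed, and of Hoxd only Hoxd8, so the contrast by position was not separate from that by cluster. No group was listed in full. Group 6 had 2 of 3 genes listed, group 10 had 2 of 3 and group 4 had 2 of 4. At the posterior end, groups 11, 12 and 13 had none of their 3, 2 and 4 genes listed. Within a group the members of different clusters differed, as at group 5, where Hoxb5 was listed with 2.3 RPM and Hoxa5 and Hoxc5 were not, and at group 9, where only Hoxa9 of 4 genes was listed.

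**Figure D4:**
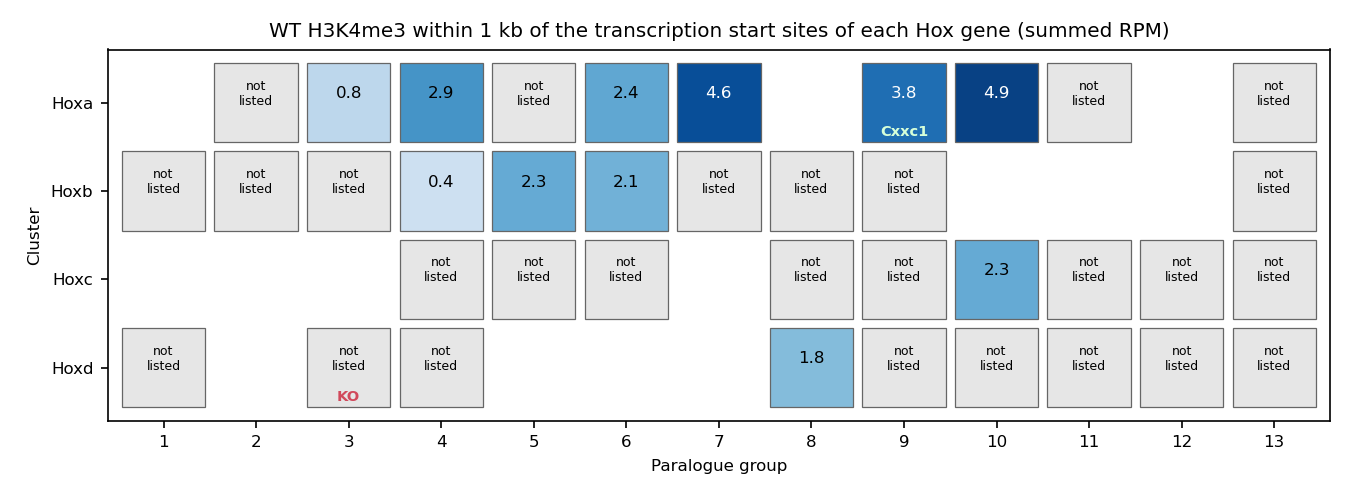
Hox genes by cluster (rows) and paralogue group (columns), with the summed WT H3K4me3 RPM of listed windows within 1 kb of the TSSs as number and shade; grey boxes were not listed and empty places have no gene shown. Listed genes stand mainly in groups 3 to 10 of Hoxa and Hoxb, up to 4.9 RPM at Hoxa10, the mark Cxxc1 shows Hoxa9 and the mark KO (Cxxc1-deficient) shows Hoxd3.

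In Cxxc1-deficient DP thymocytes, H3K4me3 was listed at 1 of the 39 Hox genes, Hoxd3, or 2.56%. The share was 5.89% of all protein-coding genes and 8.97% of those with a CpG island. With 39 genes, a count of 1 is not far from the share of all genes. The 4 regions held 2 Cxxc1-deficient peaks, both in Hoxd, with 8 windows and 3.0 RPM, and no window in Hoxa, Hoxb or Hoxc. The first lay at 74551801 to 74553200 in an intron of Hoxd3 and over an exon of the noncoding gene 1700109F18Rik (RefSeq Hoxd3os1), 1815 bp from a TSS. The second lay at 74577001 to 74578000 on an internal TSS of Hoxd3 at 74577676, which is 1 of its 6 and not the most upstream. Each held 1.5 RPM (15 tags, 8.4 to 24.7) and was stronger than only 3.76% of the Cxxc1-deficient list.

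No Hox gene was listed in both genotypes, and 4.01% of all protein-coding genes were. Of the 11 Hox genes listed in WT, 0 were listed in Cxxc1-deficient cells. The share over all 6934 WT-listed genes was 12.8%. With so few Hox genes, both counts of 0 are near these shares and do not set the Hox genes apart. Conversely, 68.1% of the 1309 genes listed in Cxxc1-deficient cells were also listed in WT, and Hoxd3 was not among them, with its nearest WT window 4786 bp from a TSS. Of the 135 WT windows in the regions, 0 were in the Cxxc1-deficient list. The whole lists held 99316 WT and 18403 Cxxc1-deficient windows. The share of all WT windows found in the Cxxc1-deficient list was not counted, so this 0 has no background beside it. Just outside the Hoxd region a Cxxc1-deficient peak at Evx2, at 74493001 to 74494200 with 1.7 RPM (17 tags), overlapped the WT Evx2 peak. The smaller size of the Cxxc1-deficient list and a lower mark at these genes cannot be told apart with 1 library per genotype. Fewer cells with the mark and less of it per cell cannot be told apart either.

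Cxxc1 was listed at 1 of the 39 Hox genes, Hoxa9, or 2.56%, against 1.97% of all protein-coding genes and 2.78% of those with a CpG island. The share at Hox genes was thus near that of genes at large. The peak lay at 52181801 to 52182600 over an exon of Hoxa10, 713 bp upstream of the Hoxa9 TSS at 52181088, with windows of 0.7, 0.3, 0.5 and 0.4 RPM and 1.9 RPM in all (18 tags, 10.7 to 28.4). It did not overlap a listed WT H3K4me3 window, and lay between the Hoxa9 peak ending at 52181200 and the Hoxa10 peak beginning at 52183401.

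The other 2 Cxxc1 peaks of the regions were not at a Hox TSS. The stronger, at 52216001 to 52218400, held 2.3 RPM (23 tags, 14.6 to 34.5), more than 82.5% of the Cxxc1 list, and lay over the end of Gm15053 (Hottip), 5127 bp from the Hoxa13 TSS. It overlapped the WT H3K4me3 peak there by 1200 bp and shared 3 listed windows with it, the only ones that both lists had in the 4 regions. How many windows the whole lists share was not counted. The last peak, of 1.7 RPM (17 tags, 9.9 to 27.2), lay at 74607001 to 74608000 in sequence without an annotated gene, 5964 bp from the Hoxd1 TSS. Hoxb and Hoxc had no Cxxc1 window.

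Listed windows were next compared by their number of CG dinucleotides, counted on the plus strand, where each is also a CG on the other strand. The 135 WT H3K4me3 windows had a median of 8.0 CG (0 to 39) and the 2708 windows in no list a median of 3.0 (0 to 38). At least 1 CG occurred in 98.5% of the WT-listed and 84.8% of the unlisted windows. For the whole WT list the median was 4.0, so the listed Hox windows held more CG than listed windows at large. The 2 sets were not matched for distance from a TSS. Of the 968 windows in the regions with 5 or more CG, 98 were in the WT list, 10.1%, and of the 1896 with fewer, 37, 1.95%. These shares were not counted outside the regions, so they do not set the Hox regions apart. The 16 Cxxc1 windows had a median of 2.5 CG (0 to 8), and 75.0% of them held at least 1. Both values were below those of the WT-listed windows and of the windows in no list. For the whole Cxxc1 list the median was 2.0, and 84.2% of windows held at least 1 CG. The 8 Cxxc1-deficient windows had a median of 5.0 (1 to 12). Windows of a peak are neighbours and are not independent.

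**Figure D5:**
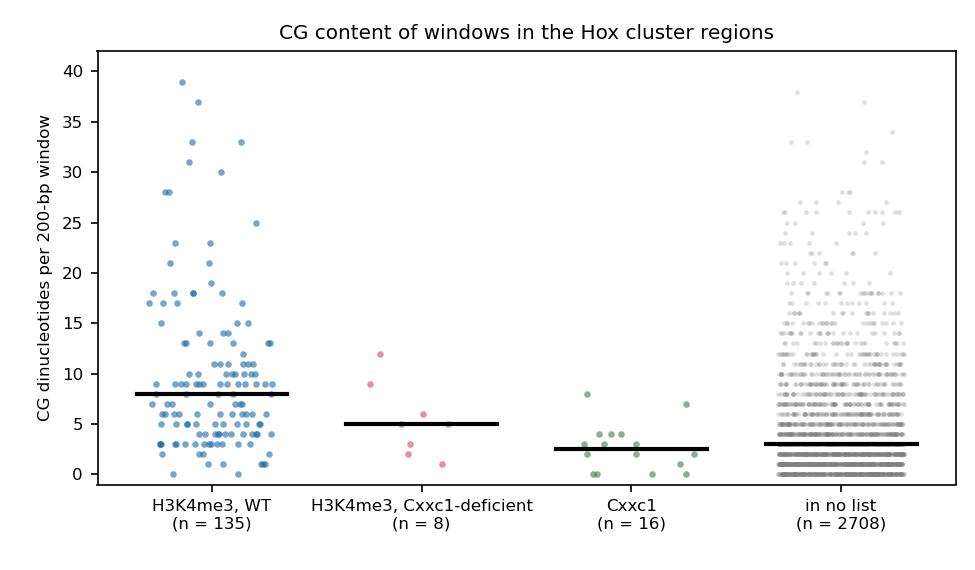
Number of CG dinucleotides in each 200-bp window of the 4 Hox regions (points, spread sideways at random), by list, with black bars at the medians. The bars stand at 8.0 for WT H3K4me3, 5.0 for Cxxc1-deficient H3K4me3, 2.5 for Cxxc1 and 3.0 for windows in no list.

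Between Hox genes, by contrast, the CG content around the TSS did not separate listed from unlisted members. Within 1 kb of the TSS with the most, the 11 WT-listed genes had a median of 89 CG (26 to 211) and the 28 others 96 (46 to 198), and the median ratio of observed to expected CG was 0.60 in both. A CpG island was present at 10 of the 11 and at 27 of the 28. The exceptions were Hoxb4, which was listed, and Hoxb13, which was not. Unlisted genes included Hoxa13 with 198 CG and Hoxd11 with 192, and listed ones Hoxa6 with 68 and Hoxd8 with 211.

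The clusters also hold 30 noncoding or pseudogene entries of the annotation. Of these, 6 had a WT H3K4me3 window within 1 kb of a TSS, 1 (1700109F18Rik) a Cxxc1-deficient window and 0 a Cxxc1 window. No share over all noncoding entries of the annotation is given. The entries are not all separate places, since Mir196b shares its windows with RP23-329P9.11 and 9930038K12Rik, and Mir10a and other microRNA genes are entered more than once. Among them are the Hox microRNAs, which target Hox transcripts themselves. Mir196b, at 52180080 to 52180164 inside the annotated span of Hoxa9, lay 37 bp from a WT window of 0.5 RPM and had 2.1 RPM within 1 kb. Mir10a, at 96178479 to 96178588 inside the annotated span of Hoxb4, lay 213 bp from a WT window of 0.4 RPM and had 0.7 RPM within 1 kb. Their mature sequences in RefSeq (GRCm38.p6), with the seed (bases 2 to 8) in capitals, have different seeds.
mmu-miR-196b-5p: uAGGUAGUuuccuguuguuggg
mmu-miR-10a-5p: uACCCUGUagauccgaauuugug
The other microRNA genes of the clusters were farther away, Mir196a-2 at 5172 bp, Mir196a-1 at 9078 bp, Mir10b at 18927 bp and Mir615 at 46741 bp from a WT window.

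Hox proteins bind DNA with partners of the TALE class, and 7 of 11 such genes were listed in WT H3K4me3, 0 in Cxxc1-deficient H3K4me3 and 0 in Cxxc1. The shares of all protein-coding genes were 31.2%, 5.89% and 1.97%, and in WT 49.4% of genes with a CpG island. Counts of 0 among so few genes are near the shares of the last 2 lists. The highest were Tgif1 with 9.9 RPM within 1 kb of its TSSs, Pknox1 with 4.4, Pbx3 with 4.3 and Pbx2 with 3.6 RPM. Meis1, Meis2 and Meis3 were not listed. Meis1 is the partner known with Hoxa9 in blood progenitors. Of 13 homeobox genes linked to the clusters or of the ParaHox kind, 4 were listed in WT (Gsx2 with 1.9, Pdx1 with 1.5, Cdx2 with 0.5 and Evx2 with 0.3 RPM) and 0 in the other lists.

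Of the regulators of Hox chromatin, 7 of 10 Trithorax-side genes were listed in WT, led by Mll2 with 3.4, Wbp7 with 3.0, Wdr5 with 2.4 and Dot1l with 2.0 RPM. In Cxxc1-deficient cells 2 were listed, Dot1l with 1.8 RPM and Dpy30 with 2.6 RPM, the latter not listed in WT. Of 15 Polycomb genes, 13 were listed in WT, among them Jarid2 and Cbx8 with 4.3 RPM each, Pcgf2 with 4.0 and Ezh2, the methyltransferase, with 2.8 RPM. The only one listed in Cxxc1-deficient cells was Eed, with 2.0 RPM against 2.6 in WT. Cxxc1 was listed at 2 Polycomb genes, Pcgf2 with 1.6 RPM and Suz12 with 1.5 RPM. The shares of all protein-coding genes were 31.2% in WT, 5.89% in Cxxc1-deficient cells and 1.97% in Cxxc1. In WT 49.4% of genes with a CpG island were listed.

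The nearest protein-coding genes outside the clusters were also examined, which lay 0.283 to 910 kb away. Of these 24 genes, 3 on each side of each cluster, 12 were listed in WT, 2 in Cxxc1-deficient cells and 1 in Cxxc1. The shares of all protein-coding genes were 31.2%, 5.89% and 1.97%. Both genes listed in Cxxc1-deficient cells were also listed in WT. Atp5g1, which encodes a mitochondrial ATP synthase subunit, lay 119 kb from Hoxb. Its listed windows summed to 1.5 RPM in WT (2 windows), 2.3 RPM without Cxxc1 (8 windows) and 0.9 RPM in the Cxxc1 list. At Tax1bp1, 453 kb from Hoxa, they summed to 1.8 RPM in WT (3 windows) and 2.9 RPM without Cxxc1 (9 windows). The larger sums without Cxxc1 thus went with more listed windows and do not show a higher mark per window. The chromobox genes Cbx3, Cbx1 and Cbx5, which lie 672, 421 and 155 kb from Hoxa, Hoxb and Hoxc, held 3.3, 2.8 and 3.1 RPM in WT and were not listed in Cxxc1-deficient cells. The next homeobox gene beyond Hoxa13, Evx1, was not listed in any list.

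Since Hox genes of the Hoxa cluster are also used by progenitors and stroma, markers of other cells were examined. Of 4 stem and progenitor markers, Kit with 2.8 RPM and Gata2 with 2.4 RPM were listed in WT, and Cd34 and Mecom were not. In mesenchyme 1 of 4 was listed (Pdgfra, 0.6 RPM), in erythroid cells 1 of 3 (Klf1, 0.9 RPM), and in endothelium 0 of 3 in WT and 1 of 3 (Pecam1, 0.4 RPM) in Cxxc1-deficient cells. No stem, mesenchymal or erythroid marker was listed in Cxxc1-deficient H3K4me3. Over all protein-coding genes, 31.2% were listed in WT and 5.89% in Cxxc1-deficient cells. Among genes with a CpG island, 49.4% were listed in WT. With 3 or 4 genes per set, the counts cannot be set apart from these shares. The study describes DP thymocytes sorted by flow cytometry, but the sort behind these libraries is not detailed. The part of progenitors or stroma in the Hox signal was not tested.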

How the data were processed

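H3K4me3 ChIP was made in WT and Cxxc1-deficient DP thymocytes and Cxxc1 ChIP with WT input and a Cxxc1-deficient control, 1 library each (5 samples). Input and the control ChIP were not analysed here. Per the study's methods, 50-bp reads (CASAVA 1.8.2) were mapped to mm9 and unique reads went into SICER 1.1 at a false discovery rate of 1e-05, with input and Cxxc1-deficient ChIP as controls. Which control served H3K4me3, the aligner and the handling of duplicates are not given in the sources used here, and all of them bear on which windows were called. The authors deposited 200-bp windows of the called regions with their value in RPM at 1 decimal.

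Windows with at most 2 missing windows between them were joined into peaks, whose strength is summed RPM. The RPM of 1 tag (0.1056 to 0.1057 in WT H3K4me3, 0.1058 to 0.1059 in Cxxc1-deficient H3K4me3, 0.1097 to 0.1099 in Cxxc1) was inferred from the decimals that occur, and tags are values divided by it. Genes and the 46006 TSSs of protein-coding transcripts came from GENCODE vM1, whose assembly (NCBIM37) is mm9. CpG islands had a length of 500 bp or more, GC of 55% or more and a CG ratio (observed to expected) of 0.65 or more. A gene was listed where a window overlapped 1 kb around any TSS. Genes were named where listed, with neighbours and up to 4 genes per list. The members and lists were chosen with earlier results of these data known. Some genes are counted but not reported here by name. Groups came from sample titles. With 1 library per group no test was run. Alternatives were other distances, flanks, joining rules, start sites, thresholds and background genes. Functions were tested on simulated data. Python 3.11.15, numpy 2.4.6, pandas 2.3.3, scipy 1.17.1, pysam 0.24.0, samtools 1.23.1 and matplotlib 3.10.9 were used.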

Additional observations from a re-analysis of the deposited data

How the results depend on the processing

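Of 47 alternative values for 13 results, 31 stayed close to the reported value and 16 moved. With 5 kb around a TSS, WT H3K4me3 was listed at 19 Hox genes, Cxxc1 at 2 (Hoxa9 and Hoxa10) and both genotypes at 1 (Hoxd3), and with 500 bp Cxxc1 was listed at 0, all by the construction of the distance. The WT count was otherwise 9 to 13 and was 10 without the 3 Hoxa3 start sites between Hoxa6 and Hoxa7, an alternative chosen after seeing the data. For Cxxc1-deficient H3K4me3 the count fell to 0 genes with only the 5′ end of each gene, and the stronger 50% of its peaks left 0 genes and 0 windows, so Hoxd3 rests on 1 weak peak at an internal start site. Joining only touching windows gave 49 WT, 6 Cxxc1-deficient and 7 Cxxc1 peaks, and without flanks Cxxc1 had 4 windows in 1 peak. The share of all genes was 49.4% (WT), 8.97% (Cxxc1-deficient) and 2.78% (Cxxc1) among genes with a CpG island, and 32.5% (WT) among autosomal genes. No paired analysis was possible because there was only 1 library in a group.

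Hox peaks held 15 to 52 tags in single libraries, and differences between peaks were not tested. Signal below the calling threshold is not known, so a gene that is not listed was not shown to lack the mark.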
